A study of Mus musculus with 4 samples.

Results

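Fabp5, Fabp4, Cd36, Lpl and Plin2, 5 genes of fatty acid uptake and storage, were followed by name across the leukocytes of the mouse small intestinal muscularis after injury. They were chosen as 5 of the 16308 genes in the count tables, and all 5 held unique molecular identifiers (UMIs, each standing for 1 captured transcript) in all 4 libraries. The libraries held CD45+ leukocytes of the muscularis externa, the muscle coat of the gut wall, taken from 12-week-old mice after intestinal manipulation, a surgical injury that inflames the muscle. The 4 groups were WT C57BL/6J mice at 24 h and at 72 h and CCR2 KO mice (Ccr2-/-; B6.129S4-Ccr2tm1Ifc/J) at 24 h and at 72 h. Each group was 1 library pooled from several mice, the knockout was carried in every cell of the animal, and all mice were operated, so that uninjured tissue is not part of the comparisons. CCR2 is the chemokine receptor with which monocytes leave the bone marrow, and the design asks how its loss and the time after injury alter the muscularis leukocytes.

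With 1 library per group no test between groups was possible. Levels are UMIs pooled over the cells of a class per 1000000 UMIs of that class (CPM) with an exact Poisson 95% interval, and ratios are log2 ratios of CPM with an exact conditional binomial interval. These intervals, and the binomial intervals of shares of cells given below, cover counting error only and say nothing of the spread between mice.

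Fatty acids reach a macrophage (Mφ) as free acids or are released from lipoprotein triglycerides at the cell surface. Lpl encodes lipoprotein lipase, the secreted enzyme that frees them. Cd36 encodes a scavenger receptor that takes up long-chain fatty acids and oxidised lipoproteins. Fabp4 and Fabp5 encode small cytosolic proteins that bind fatty acids and carry them through the cell, and Plin2 encodes perilipin 2, a coat protein of lipid droplets in which the acids are stored as triglyceride. Lipid-laden Mφs are known for high Plin2 and Cd36, and Fabp4 and Fabp5 are known as Mφ as well as adipocyte and epidermal proteins. On GRCm38, Fabp5 lies on chromosome 3 at 10012548 to 10016607 on the plus strand and Fabp4 on the same chromosome at 10204088 to 10208576 on the minus strand, 187 kb away. Between and beside this pair the annotation places Pmp2, Fabp9 and Fabp12 of the same protein family. Cd36 lies on chromosome 5 at 17781690 to 17888801 on the minus strand, Lpl on chromosome 8 at 68880491 to 68907448 on the plus strand and Plin2 on chromosome 4 at 86648386 to 86670060 on the minus strand. The annotation also holds a processed pseudogene related to Fabp5, and reads shared between Fabp5 and that pseudogene would make the Fabp5 counts uncertain.

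Of 5811 deposited cells, 16 carrying non-leukocyte markers were set aside and 5795 were used, 1674 from WT 24 h, 1764 from CCR2 KO 24 h, 1315 from WT 72 h and 1042 from CCR2 KO 72 h. The total was 9736725 to 21206308 UMIs per library, and the median was 12859 and 12427 UMIs per cell in the WT and 3284 and 5016 in the CCR2 KO libraries. Pairs of libraries shared 0 or 1 cell barcode. Cells were clustered without the 5 genes, and clusters were named from marker genes. Monocyte/Mφ-like cells numbered 1293 in WT 24 h, 219 in CCR2 KO 24 h, 887 in WT 72 h and 149 in CCR2 KO 72 h, which is 77.2%, 12.4%, 67.5% and 14.3% of the cells. Neutrophil-like cells numbered 294, 1277, 87 and 235 in the same order, and dendritic cell-like cells 46, 60, 135 and 131. Within monocyte/Mφ-like cells the median depth was 12995 to 15791 UMIs, a narrower range than over all cells. Ccr2 itself stood at 759 and 1064 CPM in the monocyte/Mφ-like cells of WT and at 95.7 and 85.2 CPM in those of CCR2 KO, so that transcript was still counted from the knockout.

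In 19 of the 20 pairs of gene and library, the class with the highest level was the monocyte/Mφ-like class. The exception was Fabp5 in CCR2 KO 72 h. In 7 of the 19, all at 72 h, the interval overlapped that of the next class, as for Fabp5 in WT (389 CPM against 387 CPM in dendritic cell-like cells). The share of a library's UMIs that lay in monocyte/Mφ-like cells was at least 87.5% for Fabp4 and at least 90.6% for Lpl in every library, although the class was a small part of the CCR2 KO cells. For Cd36 it was 98.7% in WT 24 h, 97.5% in CCR2 KO 24 h, 84.5% in WT 72 h and 70.6% in CCR2 KO 72 h. Fabp5 and Plin2 were spread wider. Their shares in monocyte/Mφ-like cells were 98.9% and 96.4% in WT 24 h but 27.4% and 41.1% in CCR2 KO 72 h.

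**Figure D1:**
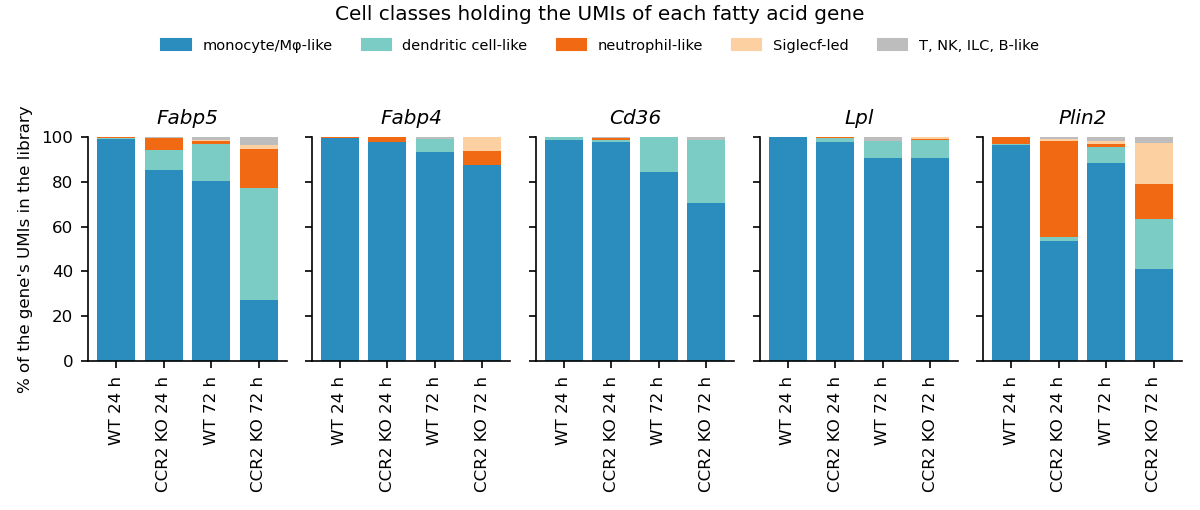
Share of the UMIs of each gene that lay in each cell class, as stacked bars in percent of all UMIs of that gene in a library, for the 4 libraries. Lpl and Fabp4 lay almost wholly in monocyte/Mφ-like cells, while 42.7% of the Plin2 UMIs of CCR2 KO 24 h lay in neutrophil-like cells and 49.6% of the Fabp5 UMIs of CCR2 KO 72 h in dendritic cell-like cells.

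Fabp5 was high in monocyte/Mφ-like cells at 24 h and far lower at 72 h. Its level was 2106 CPM (2086 to 2126) in WT 24 h, 3408 CPM (3348 to 3469) in CCR2 KO 24 h, 389 CPM (378 to 400) in WT 72 h and 327 CPM (303 to 352) in CCR2 KO 72 h. Both 24 h libraries stood above both 72 h libraries, no intervals overlapped, and CCR2 KO was above WT at 24 h and below it at 72 h. The 72 h order held with all cells but not with cells of at most 5% mitochondrial UMIs, where the log2 ratio of CCR2 KO over WT was 0.68 in place of -0.25. In CCR2 KO 72 h, 1 cell held 17.1% of the Fabp5 UMIs, and the level without that cell was 276 CPM.

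Fabp4, its neighbour on the chromosome, was a gene of few cells. It stood at 31.2 CPM (28.8 to 33.8) in WT 24 h, 193 CPM (179 to 208) in CCR2 KO 24 h, 9.73 CPM (8.08 to 11.6) in WT 72 h and 6.52 CPM (3.56 to 10.9) in CCR2 KO 72 h. The CCR2 KO 24 h library was the highest and the intervals of the 72 h libraries overlapped. In CCR2 KO 24 h, 258 of the 701 Fabp4 UMIs came from 1 cell, and the level without it was 123 CPM. In the 72 h libraries 1 cell held 36.6% (WT) and 64.3% (CCR2 KO) of the UMIs.

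Cd36 separated by genotype rather than by time. Its level was 40.4 CPM (37.6 to 43.3) in WT 24 h, 241 CPM (226 to 258) in CCR2 KO 24 h, 50.5 CPM (46.6 to 54.5) in WT 72 h and 248 CPM (227 to 270) in CCR2 KO 72 h. Both CCR2 KO libraries were above both WT libraries, and the intervals of the CCR2 KO libraries overlapped.

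Lpl was higher in CCR2 KO at each time and lower at 72 h in each genotype. It stood at 257 CPM (250 to 264) in WT 24 h, 554 CPM (530 to 579) in CCR2 KO 24 h, 174 CPM (166 to 181) in WT 72 h and 292 CPM (269 to 316) in CCR2 KO 72 h. The 4 intervals did not overlap, but 1 cell held 23.3% of the Lpl UMIs of CCR2 KO 72 h and the level without it was 228 CPM, below WT 24 h.

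Plin2 separated by time and little by genotype. It stood at 1360 CPM (1343 to 1376) in WT 24 h, 1659 CPM (1618 to 1702) in CCR2 KO 24 h, 425 CPM (414 to 436) in WT 72 h and 432 CPM (405 to 461) in CCR2 KO 72 h. The 72 h libraries overlapped and lay below both 24 h libraries.

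**Figure D2:**
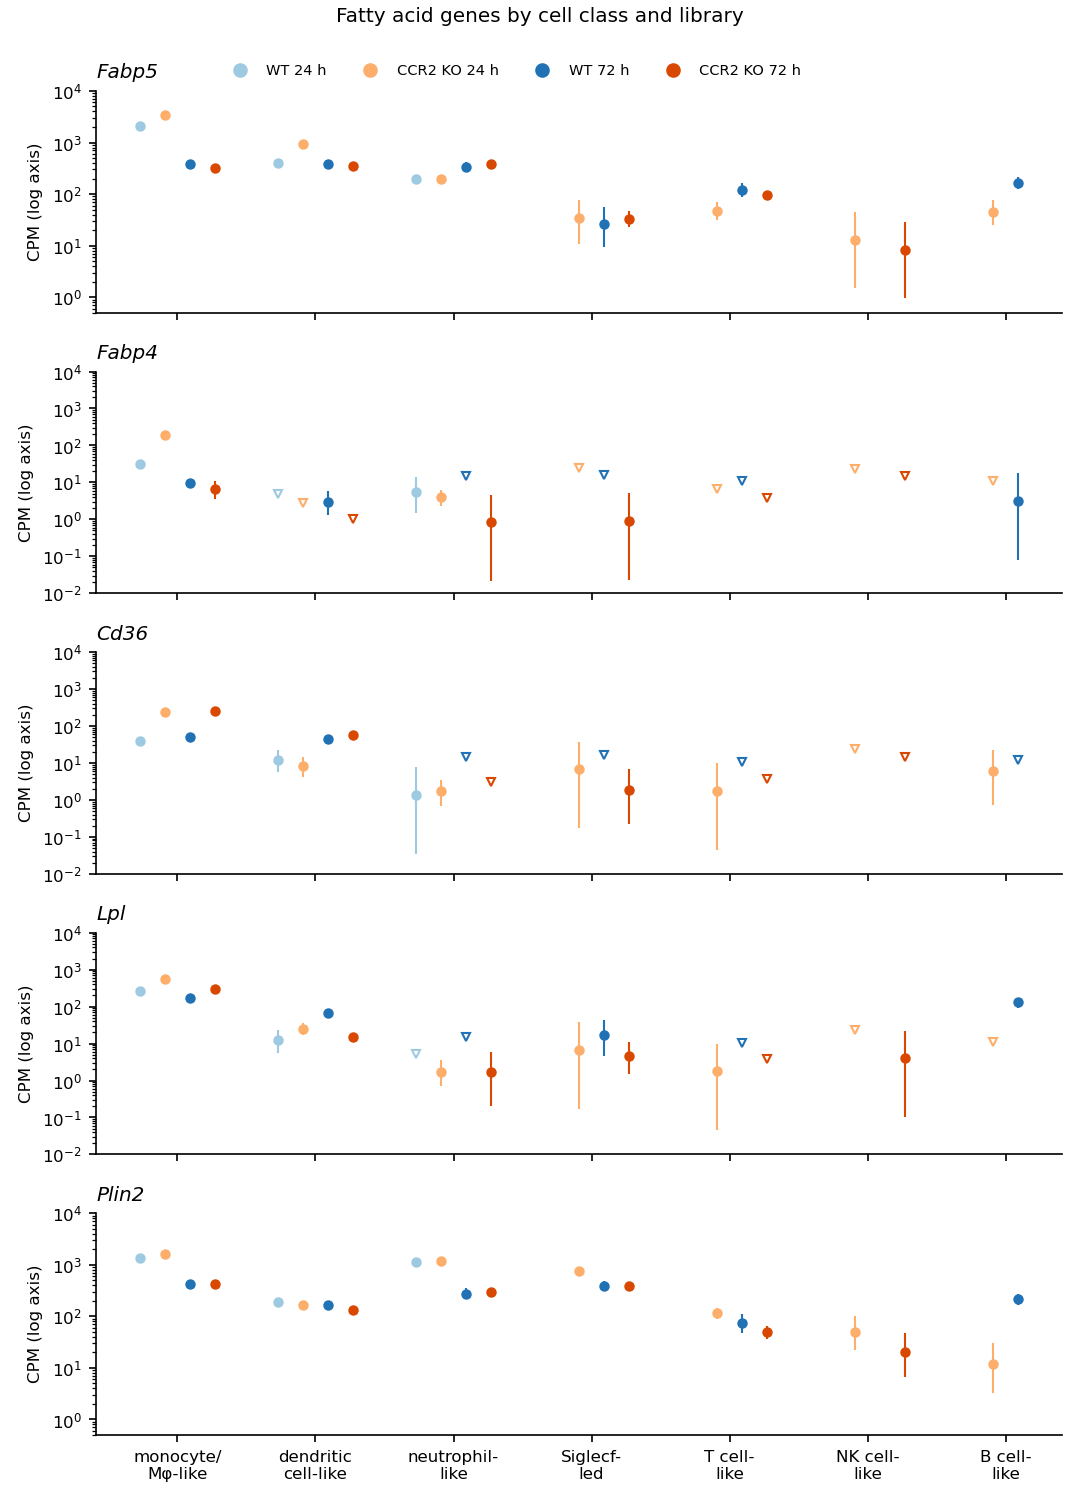
Level of each gene in CPM on a log axis by cell class and library, for classes with at least 20 cells in the library. Points are pooled CPM with exact Poisson 95% intervals and open triangles give the upper limit where no UMI was counted. Fabp4, Cd36 and Lpl stood far above the other classes in the monocyte/Mφ-like class at 24 h, while Plin2 of neutrophil-like cells lay close to it.

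The concentration of UMIs in cells differed among the genes. In WT 24 h, the median monocyte/Mφ-like cell had 581 CPM of Fabp5 and 1167 CPM of Plin2 and none of Fabp4, Cd36 or Lpl. The tenth of the cells with most UMIs of a gene held 29.4% of the Plin2, 56.8% of the Fabp5, 65.3% of the Lpl, 90.6% of the Cd36 and all of the Fabp4 UMIs in that library. In CCR2 KO 72 h the median cell had 134 CPM of Cd36, and the same fraction of the cells held 48.1% of the Cd36 UMIs. Cd36 was thus carried by a larger share of the cells there than in WT 24 h.

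To compare shares of cells at equal depth, each cell was thinned to 1000 UMIs. A Cd36 UMI was then found in 4.68% (3.59 to 5.98, exact binomial 95% interval) of 1283 WT 24 h, 18.3% (13.4 to 24.2) of 213 CCR2 KO 24 h, 4.57% (3.28 to 6.17) of 876 WT 72 h and 22.0% (15.2 to 30) of 132 CCR2 KO 72 h monocyte/Mφ-like cells. The shares of the CCR2 KO libraries lay above those of WT at both times. Without thinning they were 15.8%, 46.1%, 19.6% and 63.8%. As background, Cd36 and Fabp4 were found in 0 of 22, 0 of 112, 0 of 80 and 0 of 159 lymphocytes named T cell-, NK cell- or ILC-like, taken as the background class, and 3 cells of the last of these counts would be 1.89% (the exact binomial upper limit is 2.29%).

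For Fabp5 the thinned shares of WT and CCR2 KO overlapped at each time, although the pooled levels did not. They were 49.4% (46.6 to 52.2) and 49.8% (42.9 to 56.7) at 24 h and 17.8% (15.3 to 20.5) and 14.4% (8.89 to 21.6) at 72 h, against 0 to 4.55% in these lymphocytes. Plin2 gave 66.2% (63.5 to 68.8) and 68.1% (61.4 to 74.3) at 24 h and 32.0% (28.9 to 35.2) and 35.6% (27.5 to 44.4) at 72 h, against 5.66% to 9.09%. At 24 h, Lpl was found in 14.6% (12.7 to 16.6) of the WT cells, compared with 23.5% (18 to 29.7) in CCR2 KO, and in 11.6% (9.59 to 14.0) and 16.7% (10.7 to 24.1) at 72 h, where the intervals overlapped. For Fabp4, 2.42% (1.65 to 3.41) of the WT cells had a UMI at 24 h, against 7.04% (3.99 to 11.3) in CCR2 KO, and 1.03% and 0.758% at 72 h. The intervals of the shares of WT and CCR2 KO cells therefore stood apart for Cd36 at both times and for Lpl and Fabp4 at 24 h. They count cells of 1 library per group, which are not replicates of a genotype, and the clusters that make up the class differed between the libraries.

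**Figure D3:**
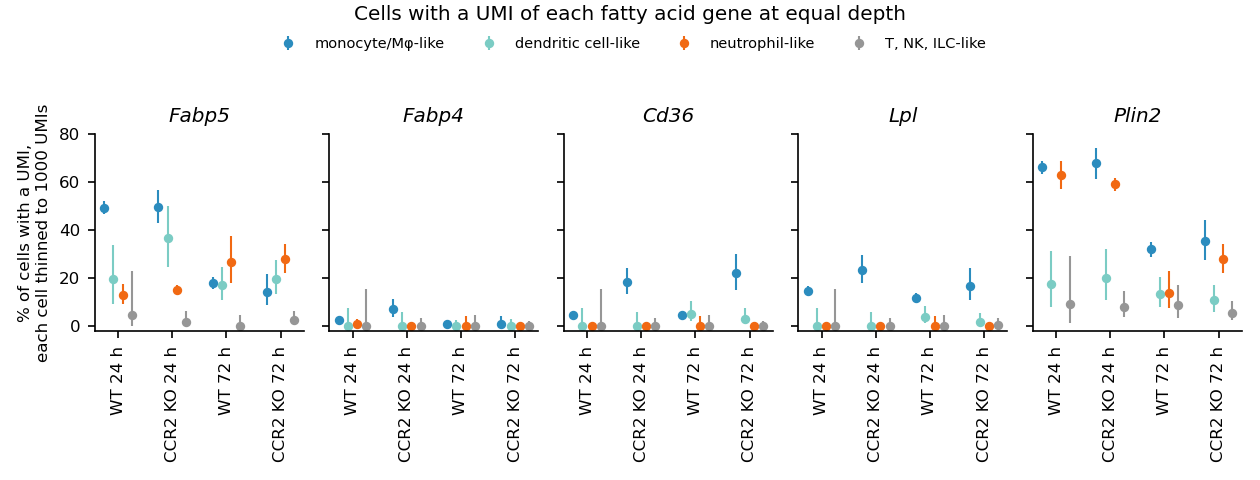
Percent of cells with a UMI of each gene after each cell was thinned to 1000 UMIs, by library, for monocyte/Mφ-like, dendritic cell-like, neutrophil-like and background lymphocyte (T, NK, ILC) cells, with exact binomial 95% intervals. Plin2 of neutrophil-like cells (62.9% in WT 24 h) was close to that of monocyte/Mφ-like cells (66.2%) at 24 h, while Cd36 in CCR2 KO (18.3% and 22.0%) stood above the other 3 classes shown.

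The genes were found together in some cells more than in others. Of the 60 WT 24 h cells with a Cd36 UMI after thinning, 38.3% (26.1 to 51.8) also had Lpl, compared with 13.4% (11.5 to 15.4) of the cells without Cd36. In CCR2 KO 24 h the shares were 41.0% (25.6 to 57.9) of 39 cells and 19.5% (13.9 to 26.2) of 174, with intervals that overlapped slightly. Lpl went with Fabp4 in the same way in WT 24 h, in 38.7% (21.8 to 57.8) of the Fabp4+ and 14.0% (12.1 to 16.0) of the Fabp4- cells. By contrast, Fabp5 was found in 43.3% (30.6 to 56.8) of the Cd36+ and 49.7% (46.9 to 52.6) of the Cd36- cells of WT 24 h, and in 38.5% (23.4 to 55.4) and 52.3% (44.6 to 59.9) of those of CCR2 KO 24 h, with overlapping intervals. All 15 Fabp4+ cells of CCR2 KO 24 h held Fabp5 and Plin2 too, whereas 46.0% (38.9 to 53.2) of the Fabp4- cells had Fabp5. In WT 24 h, 77.4% (58.9 to 90.4) of 31 Fabp4+ cells had Fabp5 and 9.68% (2.04 to 25.8) had Cd36.

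The first comparison sets CCR2 KO against WT at 24 h in monocyte/Mφ-like cells. Fabp4, Cd36 and Lpl were at least 2-fold higher in CCR2 KO, so 3 of the 5 genes were past 2-fold and none was past 2-fold lower. Of 5867 genes compared, 157 (2.68%) were at least 2-fold higher and 79 (1.35%) lower. The log2 ratio was 2.63 (2.47 to 2.79) for Fabp4, 2.58 (2.44 to 2.72) for Cd36 and 1.11 (1.03 to 1.18) for Lpl. Fabp5 was 1.62-fold higher with a log2 ratio of 0.69 (0.67 to 0.72), and Plin2 1.22-fold higher with 0.29 (0.25 to 0.33). The median log2 ratio was 1.11 over the 5 genes and -0.07 over all genes compared. Without the cell that held most UMIs of the gene in each library the ratios were 2.16 for Fabp4, 2.58 for Cd36 and 1.02 for Lpl.

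The clusters that hold the class differed between the libraries. In WT 24 h, 35.6% of the monocyte/Mφ-like cells lay in a cluster led by Spp1 and 35.0% in a cluster led by Vcan and Chil3, and in CCR2 KO 24 h 40.6% lay in the Spp1-led cluster and 23.7% in a cluster led by Lilra5 and Mmp13. Fabp5, Fabp4 and Lpl did not enter the clustering but were among the leading genes of the Spp1-led cluster, so these shares are no test. With WT levels of 8 sub-clusters (below 20 WT cells left out) weighted to the sub-cluster mix of CCR2 KO, the WT level was 115 CPM of Fabp4, 125 CPM of Cd36 and 377 CPM of Lpl. CCR2 KO over that level gave log2 ratios of 0.79, 0.91 and 0.58, so that 0 of the 5 genes were past 2-fold. For Fabp5 this ratio was 0.28 and for Plin2 it was -0.08. The ratio of the reweighted to the original WT level was 1.86 for Fabp4, 1.64 for Cd36, 0.55 for Lpl, 0.44 for Fabp5 and 0.38 for Plin2 on the log2 scale.

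**Figure D4:**
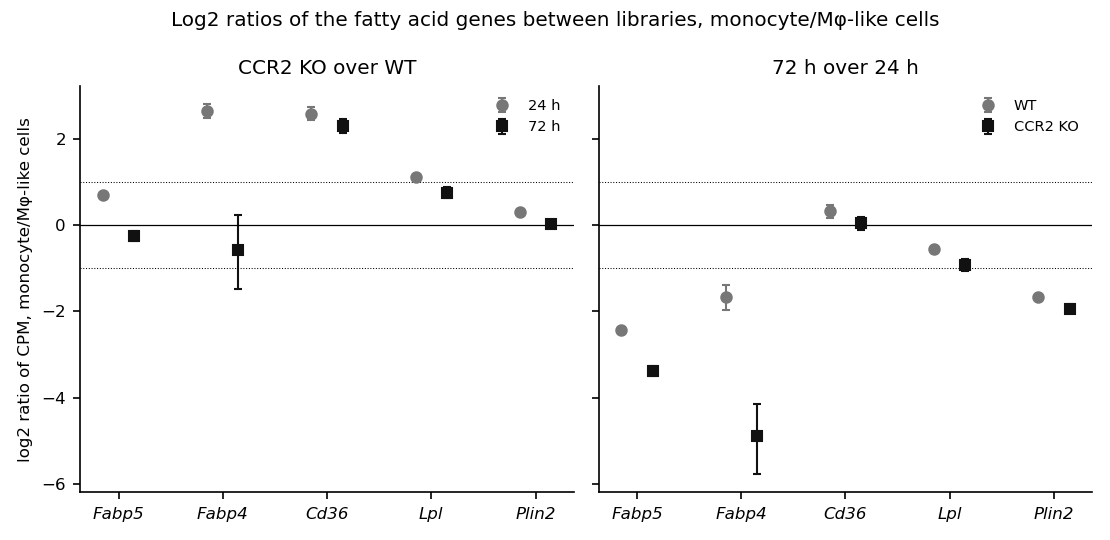
Log2 ratios of CPM of the 5 genes in monocyte/Mφ-like cells, for CCR2 KO over WT at 24 h and 72 h (left) and 72 h over 24 h in WT and CCR2 KO (right), with exact conditional binomial 95% intervals. Dotted lines mark a 2-fold difference. Cd36 was higher in CCR2 KO at both times and near 0 over time, while Fabp5, Fabp4 and Plin2 were lower at 72 h in both genotypes.

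At 72 h, the second comparison, Cd36 alone was at least 2-fold higher in CCR2 KO, with a log2 ratio of 2.29 (2.13 to 2.46) or 4.91-fold. That is 1 of the 4 genes that reached 20 CPM in either library, beside 362 of 6438 genes (5.62%) higher and 161 (2.50%) lower. Lpl had a log2 ratio of 0.75 (0.62 to 0.88), or 0.56 without the cell with most UMIs in each library. For Fabp5 the ratio was -0.25 (-0.37 to -0.14), with the turn to 0.68 given above, and for Plin2 0.02 (-0.08 to 0.12). Fabp4 was below the minimum level in both libraries, with -0.58 (-1.49 to 0.22). The median was 0.39 over the 4 genes and 0.12 over all. The classes were again made of different clusters, 47.7% of the WT cells in a cluster led by Apoe, Ms4a7 and Selenop and 53.0% of the CCR2 KO cells in the cluster led by Lilra5 and Mmp13. edgeR's TMM scaling, which centres the bulk of the genes, subtracted 0.18 from each ratio of this comparison and turned the split of all genes from 362 higher and 161 lower to 261 and 267. With it Plin2 stood at -0.15 and Cd36 at 2.12.

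The remaining comparisons set 72 h against 24 h. In WT, 3 of the 5 genes were at least 2-fold lower at 72 h, Fabp5 by 5.41-fold with a log2 ratio of -2.44 (-2.48 to -2.39), Fabp4 with -1.68 (-1.97 to -1.40) and Plin2 with -1.68 (-1.72 to -1.64). None was past 2-fold higher. Among 6206 genes, 407 (6.56%) were lower and 426 (6.86%) higher. Lpl had -0.57 (-0.64 to -0.49) and Cd36 0.32 (0.17 to 0.47). The direction of Cd36 was not fixed, since it was -0.22 with at most 5% mitochondrial UMIs and -0.07 with the mean over cells. TMM scaling subtracted 0.16 and turned the split of all genes to 591 lower and 313 higher, with no gene of the 5 crossing 2-fold.

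In CCR2 KO the same 3 genes were past 2-fold lower, beside 308 of 6462 genes (4.77%) lower and 672 (10.4%) higher. Fabp5 was 10.4-fold lower, with a log2 ratio of -3.38 (-3.49 to -3.27), and Plin2 3.84-fold lower with -1.94 (-2.04 to -1.84). Fabp4 had -4.89 (-5.77 to -4.14), on 14 UMIs at 72 h. Lpl had -0.92 (-1.06 to -0.79), which became -1.16 with TMM scaling and -1.15 without the cell with most UMIs in each library, past 2-fold in both. Cd36 had 0.04 (-0.12 to 0.19) and -0.20 with TMM scaling, so its direction was not fixed. TMM scaling subtracted 0.24 here and gave 517 lower and 445 higher genes. The WT and CCR2 KO time comparisons share no library, but each shares its libraries with the genotype comparisons.

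Sub-clusters of the monocyte/Mφ-like cells, formed without the 5 genes, showed where each gene was carried. Of 13 sub-clusters, 5 could be named by markers of subsets that the study describes (Cx3cr1-like, Cd206-like, Timp2-like and a pair of Ly6c monocyte-like sub-clusters), and the others are called by leading genes. The study uses Fabp5 to name a subset of its own, so the level of Fabp5 across sub-clusters is no independent evidence for such a subset. Although the 5 genes did not enter the clustering, Fabp4 was the leading gene by fold of the sub-cluster called Inhba-led here, and Fabp5 was among the leading genes of the Pf4-led one, so these levels describe the sub-clusters and are no test.

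Fabp5 was highest in a pair of 24 h sub-clusters. In the Inhba-led sub-cluster, with Il7r and Cd9, its level was 4907 CPM (4727 to 5093) in 40 WT and 5535 CPM (5416 to 5657) in 73 CCR2 KO cells. In the Pf4-led sub-cluster, with Ppbp, Spp1 and Arg1, it was 3964 CPM (3914 to 4013) in 388 WT and 6351 CPM (6107 to 6602) in 26 CCR2 KO cells. These sub-clusters held 1 and 2 WT cells at 72 h and 0 and 7 CCR2 KO cells, so the sub-clusters with most Fabp5 at 24 h were nearly empty at 72 h. The Cxcl3-led Ly6c monocyte-like cells of WT 24 h had 1547 CPM (1515 to 1580). In the Cd206-like sub-cluster, 424 of the 887 WT 72 h cells, Fabp5 was at 549 CPM (530 to 569).

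In the 3 sub-clusters with at least 20 WT cells at both times Fabp5 was lower at 72 h. In WT the log2 ratio of 72 h over 24 h was -3.38 (-3.99 to -2.82) in the Cxcl10-led Ly6c monocyte-like cells, -1.65 (-1.84 to -1.45) in the Ear2-led cells and -0.51 (-0.81 to -0.22) in the S100a8-led cells. The Cxcl13-led cells of WT went the other way, with 244 CPM (206 to 287) in 60 cells at 24 h and 484 CPM (354 to 645) in 15 cells at 72 h. Between genotypes at 24 h, Fabp5 was lower in the Cx3cr1-like cells of CCR2 KO (131 CPM against 806 CPM, log2 ratio -2.62 with -2.97 to -2.28) and higher in the Pf4-led (0.68) and Cxcl10-led cells (0.82). In the 28 WT Cx3cr1-like cells 1 cell held 36.4% of the Fabp5 UMIs, and the level without it was 552 CPM.

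Fabp4 was highest at 24 h in the Inhba-led sub-cluster. It stood at 245 CPM (206 to 289) and 429 CPM (396 to 464) in the Inhba-led cells of WT and CCR2 KO, and at 42.8 CPM (37.9 to 48.3) and 147 CPM (112 to 189) in the Pf4-led cells. The cell with 258 UMIs was an Inhba-led cell of CCR2 KO, and the level there was 258 CPM without it. In the 40 WT Inhba-led cells 1 cell held 59 of 139 UMIs, and the level without it was 146 CPM. The Cxcl13-led sub-cluster of WT 24 h had 169 CPM (138 to 205) in 60 cells, above the Pf4-led cells of that library. Without its cell with most UMIs it had 138 CPM, so the lead of the Inhba-led cells in WT rested largely on 1 cell. In WT 72 h the Timp2-like cells had 39.2 CPM (30.9 to 49.2), of which 1 cell held 45 of 75 UMIs, and 15.9 CPM without it.

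Cd36 was highest in other sub-clusters than Fabp5. In the Cx3cr1-like sub-cluster, led by Mmp13 and Ch25h, it stood at 384 CPM (321 to 456) in 28 WT and 662 CPM (604 to 723) in 50 CCR2 KO cells at 24 h. The Cxcl13-led sub-cluster had 177 CPM (145 to 214) in WT 24 h, 915 CPM (733 to 1128) in 15 cells of WT 72 h and 539 CPM (404 to 705) in 32 cells of CCR2 KO 72 h. It was low in both Ly6c monocyte-like sub-clusters of WT 24 h, at 4.72 CPM (3.11 to 6.86) and 5.69 CPM (3.56 to 8.61), which together held 639 of 1293 cells. At 72 h the Igkc-led sub-cluster, with immunoglobulin genes and the cell division genes Top2a and Mki67, had 120 CPM (94.8 to 151) in 44 WT and 227 CPM (202 to 254) in 75 CCR2 KO cells. The Cd206-like cells of WT 72 h had 25.5 CPM (21.6 to 29.9) and the Timp2-like cells 122 CPM (107 to 139). Cd36 was thus low in sub-clusters that held many of the WT cells, while the Cx3cr1-like and Igkc-led sub-clusters held 50 of 219 and 75 of 149 CCR2 KO cells at 24 h and 72 h.

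Within a sub-cluster, the genotypes stood closer for Cd36 than over the whole class. The log2 ratio of CCR2 KO over WT at 24 h was 0.79 (0.50 to 1.08) in Cx3cr1-like, 1.14 (0.69 to 1.61) in Inhba-led and 1.13 (0.71 to 1.52) in Pf4-led cells, and at 72 h it was 0.91 (0.54 to 1.30) in the Igkc-led cells. These 4 were above 0 and below the ratios of the whole class (2.58 and 2.29). In the Cxcl10-led cells at 24 h it was -0.35 (-2.73 to 1.39), on 3 CCR2 KO UMIs.

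Lpl was spread over both sets. At 24 h in CCR2 KO it stood at 794 CPM (749 to 841) in Inhba-led, 579 CPM (507 to 658) in Pf4-led and 560 CPM (508 to 617) in Cx3cr1-like cells, compared with 481 CPM (426 to 542), 388 CPM (373 to 404) and 442 CPM (375 to 519) in WT. In the WT Inhba-led cells 1 cell held 39.6% of the UMIs. Without the cell with most UMIs, the WT levels were 301, 368 and 342 CPM in the same order, so the Inhba-led cells were no longer highest. In CCR2 KO they were 683, 413 and 444 CPM, with the Inhba-led cells still highest. In the Ear2-led cells it was 401 CPM (354 to 453) at 24 h and 233 CPM (213 to 253) at 72 h in WT. The Cxcl13-led cells of WT 72 h reached 3143 CPM, but 1 of 15 cells held 78.9% of the UMIs and the level without it was 988 CPM. Lpl was low in the S100a8-led cells of WT, with 77.2 CPM at 24 h and 59.5 CPM at 72 h, and in the Cxcl10-led cells of WT 72 h, with 8.88 CPM on 3 UMIs.

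Plin2 was present in each of the 13 sub-clusters, at 376 CPM or more over the pooled libraries. The highest levels were again in Inhba-led cells, with 2638 CPM (2506 to 2775) in WT and 2331 CPM (2253 to 2410) in CCR2 KO at 24 h, and in Pf4-led cells, with 1796 CPM (1763 to 1830) and 2444 CPM (2294 to 2602). Over time in WT the log2 ratio was -2.17 (-2.49 to -1.87) in S100a8-led, -1.14 (-1.40 to -0.88) in Cxcl10-led and -0.81 (-0.97 to -0.64) in Ear2-led cells. Plin2 was lower at 72 h in each of these 3, the sub-clusters with at least 20 WT cells at both times.

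**Figure D5:**
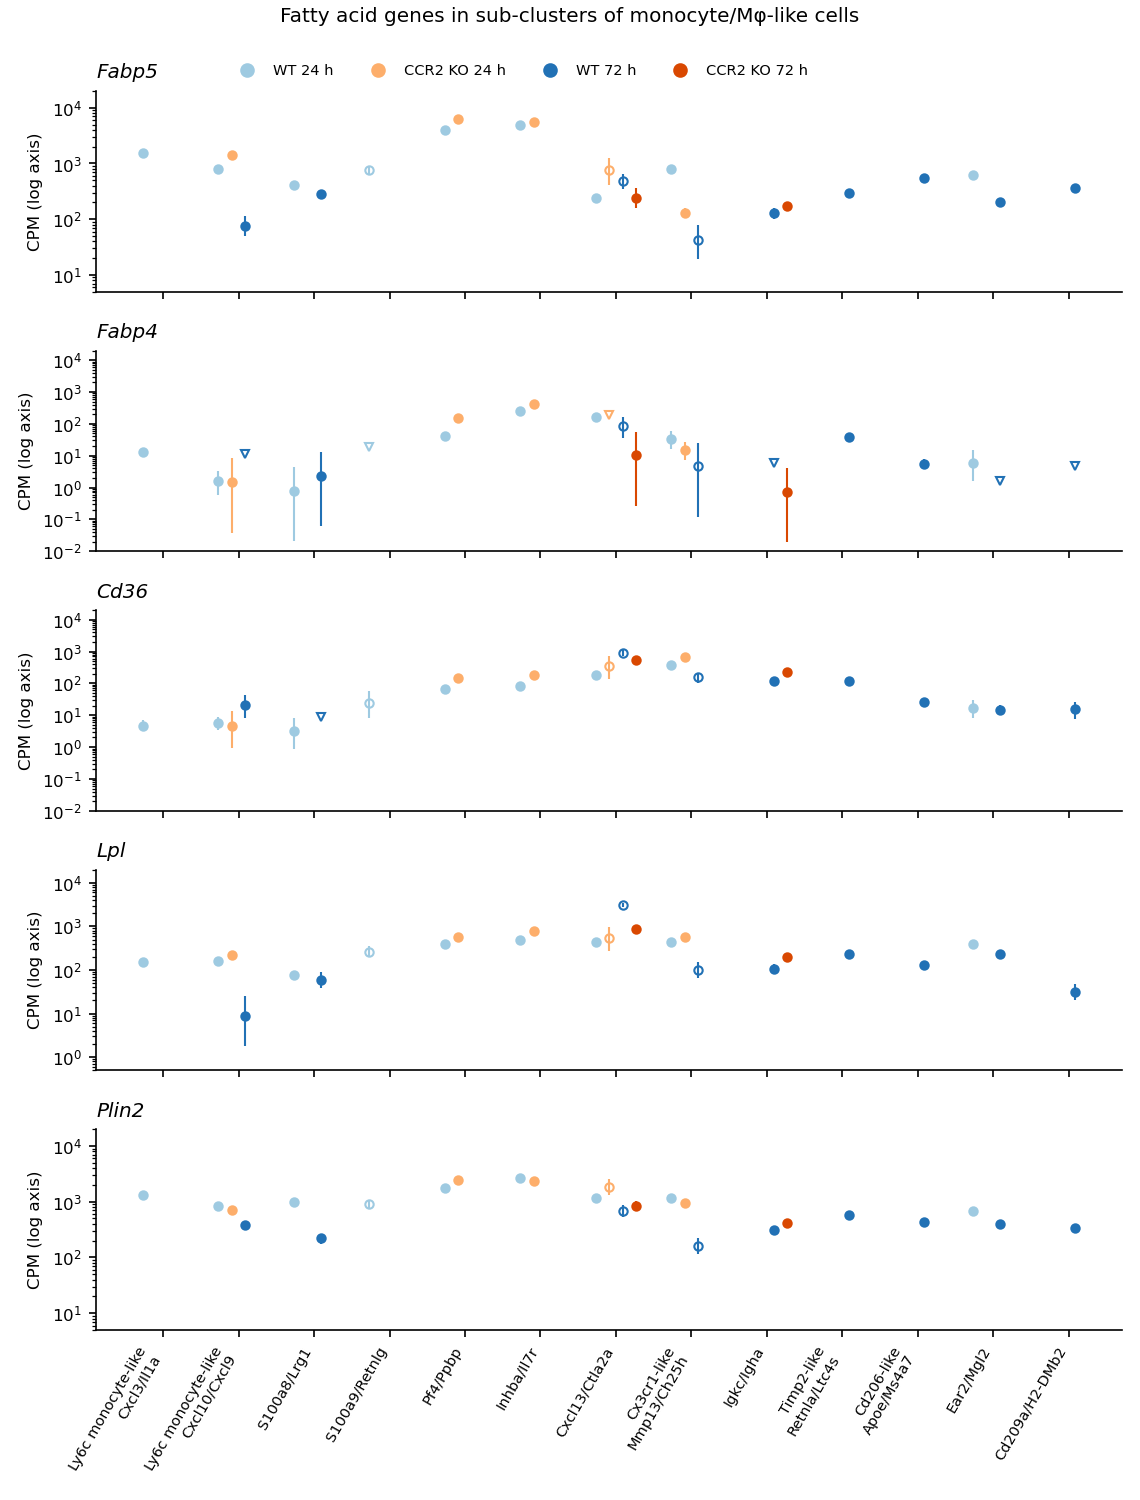
Level of each gene in CPM on a log axis in 13 sub-clusters of monocyte/Mφ-like cells by library, with exact Poisson 95% intervals. Filled points have at least 20 cells, open points 10 to 19 cells, and open triangles give the upper limit where no UMI was counted. Fabp5 and Plin2 peaked in the Pf4/Ppbp and Inhba/Il7r sub-clusters, Fabp4 in the Inhba/Il7r sub-cluster and Cd36 in the Cxcl13/Ctla2a and Mmp13/Ch25h sub-clusters.

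Markers of other cells moved with some of these sub-clusters, and their part in the results was not tested. The 7 markers of large peritoneal Mφs, a cell of the abdominal cavity, summed to 1750 CPM in the Cxcl13-led sub-cluster, pooled over the libraries. In the other sub-clusters they summed to 83.9 CPM or less. In the Cxcl13-led sub-cluster the median depth was 4102 UMIs, with 8765 in the 60 WT 24 h and 1600 in the 32 CCR2 KO 72 h cells. Prg4 (980 CPM) and Alox15 (574 CPM), both among its leading genes, made most of the sum. Gata6, Garnl3 and Selp were also highest there. Timd4 (6.12 CPM) was higher in the Cx3cr1-like sub-cluster (10.2 CPM), and Icam2 (35.5 CPM) in the Timp2-like one (55.1 CPM). Over the whole class the 7 markers summed to 77.4 CPM in WT 24 h and to 15.2 to 36.0 CPM in the other libraries. Prg4 and Alox15 stood at 37.5 and 21.8 CPM in the class in WT 24 h, compared with 0.465 and 2.79 CPM in CCR2 KO 72 h. The pooled sum of the Cxcl13-led sub-cluster therefore need not hold for its cells in each library. The Pf4-led sub-cluster is led by Pf4 and Ppbp, which platelets carry as well. The 3 platelet markers analysed summed to 2829, 1881, 811 and 1809 CPM in the class in WT and CCR2 KO at 24 h and then at 72 h, and Itga2b, a platelet integrin, held 0 to 3 UMIs per library in the class. Adipocytes and endothelial cells are known for Fabp4, Cd36 and Lpl. The 2 adipocyte markers analysed held 0 to 3 UMIs in the class, and the 6 endothelial markers summed to 19.3, 39.7, 17.5 and 15.4 CPM in the same order. Neutrophil markers summed to 1226, 678, 534 and 1002 CPM.

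Neutrophil-like cells carried Plin2 and Fabp5, and hardly the others. Plin2 stood at 1117 CPM (1041 to 1196) in WT 24 h, 1183 CPM (1149 to 1217) in CCR2 KO 24 h, 276 CPM (215 to 350) in WT 72 h and 297 CPM (267 to 329) in CCR2 KO 72 h. The genotypes overlapped at each time, and the log2 ratio of 72 h over 24 h was -2.02 (-2.39 to -1.66) for WT, compared with -1.99 (-2.16 to -1.84) for CCR2 KO. After thinning, 62.9% (56.9 to 68.6) and 59.0% (56.2 to 61.7) of the cells had a Plin2 UMI at 24 h. Neutrophil-like cells numbered 1277 in CCR2 KO 24 h, and they held 42.7% of that library's Plin2 UMIs, compared with 2.94% in WT 24 h. At 24 h in CCR2 KO, Plin2 differed among neutrophil-like clusters, with 1799 CPM (1657 to 1950) in a cluster led by Rab15 and Gdf15, 1417 CPM (1364 to 1471) in a cluster led by Csf1 and Hcar2 and 688 CPM (614 to 768) in a cluster led by Retnlg and S100a9. The same Retnlg-led cluster had 122 CPM (94.1 to 155) at 72 h.

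The clusters of the class differed between the times, since the Csf1-led cluster held 598 of 1277 CCR2 KO cells at 24 h and 16 of 235 at 72 h, and the Retnlg-led cluster 98 and 83. Fabp5 was higher at 72 h in neutrophil-like cells. At 24 h it stood at 199 CPM (167 to 234) in WT and 199 CPM (185 to 213) in the knockout, and 72 h gave 336 CPM (268 to 416) and 385 CPM (351 to 422). The log2 ratio over time was 0.76 (0.35 to 1.16) for WT, compared with 0.95 (0.78 to 1.12) for CCR2 KO. Within the Retnlg-led cluster it was 271 CPM (226 to 323) at 24 h and 442 CPM (388 to 502) at 72 h in CCR2 KO, and in a cluster led by Cxcr2 and Id1 192 CPM (150 to 242) and 151 CPM (93.3 to 230), with overlapping intervals. The thinned shares of cells were 13.1% and 15.2% at 24 h and 26.7% and 27.9% at 72 h. The Siglecf-led cluster described below was left out of the class. It held 13 WT and 59 CCR2 KO cells at 24 h and 105 and 356 at 72 h, with 26.2 and 33.2 CPM of Fabp5 at 72 h. A marker gate applied to each cell gave 192 and 596 neutrophil-like cells at 72 h in place of 87 and 235. The rise of Fabp5 thus holds for the class without that cluster. Fabp4, Cd36 and Lpl were at 0 to 5.51 CPM in neutrophil-like cells of the 4 libraries.

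Dendritic cell-like cells carried Fabp5, less Plin2 and, at 72 h, some Cd36, with some Lpl in WT at 72 h. Fabp5 stood at 401 CPM (357 to 449) in WT 24 h, 951 CPM (900 to 1005) in CCR2 KO 24 h, 387 CPM (364 to 411) in WT 72 h and 344 CPM (325 to 363) in CCR2 KO 72 h. The CCR2 KO 24 h library stood above the other 3, with a log2 ratio to WT of 1.25 (1.06 to 1.43). In WT 24 h, 1 of 46 cells held 31.6% of the UMIs, and the level without it was 279 CPM. Most Fabp5 lay in a cluster led by Ccl17, Cd209a and Ccr7, with 499 CPM (443 to 559), 1078 CPM (1019 to 1139), 518 CPM (478 to 559) and 643 CPM (605 to 683) in the order of the libraries above. In that cluster CCR2 KO was above WT at both times, unlike in the whole class at 72 h.

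Cd36 in dendritic cell-like cells was 12.2 CPM (5.56 to 23.1) and 8.14 CPM (4.06 to 14.6) at 24 h and 44.3 CPM (36.6 to 53.0) and 57 CPM (49.5 to 65.2) at 72 h in WT and CCR2 KO, with overlapping genotypes at each time. It was highest in a cluster led by Xcr1 and Clec9a, genes of cross-presenting dendritic cells, with 64.8 CPM (52.3 to 79.5) in WT and 99.7 CPM (86.5 to 114) in CCR2 KO at 72 h. This cluster made up a larger part of the dendritic cell-like cells at 72 h, with 55 of 135 and 60 of 131 cells, than at 24 h, with 7 of 46 and 5 of 60. Lpl in dendritic cell-like cells was 68.8 CPM (59.2 to 79.6) in WT 72 h and 15.4 CPM (11.7 to 19.9) in CCR2 KO 72 h. The 17 monocyte/Mφ markers summed to 4586 CPM and 1079 CPM in the same cells, and to 2099 CPM in WT and 1334 CPM in CCR2 KO at 24 h, and their part in the Lpl values was not tested. Plin2 lay between 136 and 190 CPM in all 4 libraries, and Fabp4 had 0 UMIs in 3 libraries and 8 in WT 72 h.

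A cluster led by Siglecf, which met no marker rule for a name, had Plin2 at 752 CPM (619 to 904) in CCR2 KO 24 h, 388 CPM (312 to 478) in WT 72 h and 381 CPM (345 to 420) in CCR2 KO 72 h. At 72 h this overlapped the monocyte/Mφ-like level. The cluster carried 7202 to 13848 CPM of the neutrophil marker S100a8, compared with 28492 to 75985 CPM in neutrophil-like cells. A marker gate applied to each cell named no eosinophils, and gave 596 neutrophil-like cells in CCR2 KO 72 h in place of 235. The cluster is therefore not clearly apart from the neutrophil-like class. T cell-like cells had 47.8 to 120 CPM of Fabp5 and 48.9 to 115 CPM of Plin2 in libraries with at least 20 such cells. In B cell-like cells of WT 72 h Lpl reached 130 CPM (93.2 to 176), of which 37 of 41 UMIs came from 1 cell.

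Other genes of fatty acid handling were mostly within 2-fold. Of 102 genes in 9 lists of the pathway, 92 were in the tables, and 52, 55, 55 and 58 reached 20 CPM in the comparisons of CCR2 KO with WT at 24 h and 72 h and of 72 h with 24 h in WT and CCR2 KO. At least 2-fold higher were 1, 2, 4 and 6 of them (1.92%, 3.64%, 7.27% and 10.3%) and lower 0, 0, 5 and 6 (0%, 0%, 9.09% and 10.3%), with medians of -0.04, 0.05, 0.07 and 0.23. Over all genes 2.68%, 5.62%, 6.86% and 10.4% were higher and 1.35%, 2.50%, 6.56% and 4.77% lower, so most shares of the lists lay near the background and the genes named next are single values.

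The gene higher in CCR2 KO at 24 h was Hilpda, which encodes an inhibitor of droplet lipolysis, at 233 CPM against 83.1 CPM (log2 ratio 1.49 with 1.36 to 1.61). Hilpda was also lower at 72 h, with 18.3 CPM in WT (-2.19) and 22.8 CPM in CCR2 KO (-3.35). At 72 h the genes higher in CCR2 KO were Msr1, a scavenger receptor of modified lipoproteins, with 323 CPM against 122 CPM (1.41 with 1.28 to 1.54), and Acot7, an acyl-CoA thioesterase, with 34.9 CPM against 12.8 CPM (1.45 with 1.03 to 1.85). In WT, Msr1 was lower at 72 h (-2.07 with -2.15 to -1.99), as was Acot7 (-1.30).

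Among genes of synthesis and uptake, Fads1, a fatty acid desaturase, was higher at 72 h in WT (log2 ratio 2.47) and in CCR2 KO (2.22). In CCR2 KO, Scarb1, a receptor of high-density lipoprotein, was higher at 72 h (1.10). Of the storage genes, Lpin1, a phosphatidate phosphatase, was higher at 72 h in WT (2.0), and in CCR2 KO Bscl2, which encodes seipin, was higher (1.05) and Agpat2, an acyltransferase, lower (-1.10). Of the lipolysis genes in CCR2 KO, Lipe, which encodes hormone-sensitive lipase, was higher (1.51) and Abhd5, the activator of adipose triglyceride lipase, lower (-1.37). Scarb1 and Bscl2 passed a log2 ratio of 1 by less than the 0.24 that TMM scaling subtracts. The 18 genes of fatty acid oxidation had 14 to 17 members compared and 0 past 2-fold in every comparison.

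Of the transcription factors, Nr1h3, which encodes the sterol sensor LXR alpha, was lower at 72 h in WT (16.8 against 62.6 CPM, -1.90 with -2.12 to -1.69) and CCR2 KO (13.5 against 53.8 CPM, -1.99 with -2.61 to -1.43). Hif1a was lower in both as well (-1.19 and -1.12). Pparg, the receptor known to drive Fabp4 and Cd36, stood at 15.2 CPM in WT 24 h, 22.6 CPM in CCR2 KO 24 h, 18.7 CPM in WT 72 h and 10.2 CPM in CCR2 KO 72 h, and was past 2-fold over time in CCR2 KO (-1.14 with -1.89 to -0.45) and in no other comparison. In WT Rxra was higher at 72 h (1.34) and in CCR2 KO Srebf2, a regulator of sterol synthesis, was higher (1.11, past 2-fold by less than the same 0.24). Of the other fatty acid binding proteins, Fabp3 was at 8.71, 12.1, 4.11 and 0.931 CPM in WT and CCR2 KO at 24 h and then at 72 h, and none reached 20 CPM.

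Across 22 points of class and library with at least 20 cells, the genes with the pattern most like each of the 5 were ranked by Pearson's r of log2(CPM + 10) among 9613 genes. The points share libraries and classes of unequal depth, so r is a description. Fabp5 went closest with Ctsz (r = 0.86), Zeb2os, Met, Sap30 and Cd68. Fabp4 did so with Flrt2 (0.97), Ppbp, Serpinb2, Slc7a2 and F7, and Cd36 with Cadm1 (0.91), Mt2, Plau, Rgmb and Parvb. Lpl followed Kcnk13 (0.96), Clcn5, Slc35f6, Snx24 and Mertk, and Plin2 followed Sdcbp (0.93), Cstb, Ftl1, Amdhd2 and Lrrc25. Among the 5 genes themselves r was 0.38 (Cd36 and Plin2) to 0.82 (Cd36 and Lpl). No gene of the 5 was among the closest of another.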

How the data were processed

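The count tables deposited by the authors, UMI counts per gene and cell for 4 libraries (10x 3' v3), were made with Cell Ranger 3.0.2 on GRCm38/mm10, and Seurat is named in their processing notes. Cells had over 200 genes and at most 10% mitochondrial UMIs. Here, cells with at least 3 UMIs and 0.1% of UMIs from non-leukocyte markers and at most 3 Lyz2 UMIs were removed. Cells were clustered with scanpy 1.11.5 by the Leiden method in its igraph form (2000 variable genes without the 5 genes and the list genes, 30 components, 20 neighbours, resolution 1). A cluster was named from fixed markers at a mean z score of 0.6 (sub-clusters 0.75), at least 3 markers at 20 CPM and no more markers of other lineages among 10 leading genes; these thresholds were chosen after seeing the data. Scrublet called 9 of 5795 cells (0.155%), which has not worked, so doublets stayed in and the 5% of cells with the highest scores were removed as an alternative. A marker gate per cell gave the same class for 2525 of 2548 monocyte/Mφ-like cells, and 304 of 5795 cells lay near its limit. UMIs were pooled per class and library. Genes needed 20 CPM in 1 of 2 libraries, 2-fold was the threshold, and 3 UMIs the floor. Alternatives were other classes, filters, scalings (edgeR 4.0.16, DESeq2 1.42.0 size factors) and a pseudocount. The script was tested on simulated data. From the pathway lists, up to 3 genes per list and direction past 2-fold with an interval that excludes 0 were named, and 5 like genes per gene; 1 gene that met this rule is not reported here. The 5 genes, lists and tests were chosen with earlier results of these data known. Coordinates are from GENCODE on GRCm38.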

Additional observations from a re-analysis of the deposited data

Results flagged for a closer look

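Some pairs of contrasts went in opposite directions, each with a counting interval that excludes 0; with 1 library per group the differences were not tested. In monocyte/Mφ-like cells the log2 ratio of CCR2 KO over WT of Fabp5 at 24 h exceeded that at 72 h by 0.94 (0.69 and -0.25; the latter turned to 0.68 with at most 5% mitochondrial UMIs), and in dendritic cell-like cells by 1.42 (1.25 and -0.17). In the Ccl17-led dendritic cell-like cluster, which held most Fabp5 of that class, CCR2 KO was above WT at both times. Lpl of dendritic cell-like cells was higher at 72 h in WT and lower in CCR2 KO, with log2 ratios of 2.50 and -0.71, a difference of 3.21. WT 24 h held 9 Lpl UMIs there, and 1 cell held 17 of the 34 of CCR2 KO 24 h (12.8 CPM without it, 25.1 CPM with it). The 17 monocyte/Mφ markers of these cells summed to 2099 and 4586 CPM in WT and 1334 and 1079 CPM in CCR2 KO at 24 h and 72 h, and their part was not tested. At 72 h, Lpl was higher in CCR2 KO in monocyte/Mφ-like cells (0.75) and lower in dendritic cell-like cells (-2.16), a difference of 2.91. Over time in WT, Lpl differed by -3.07 between these classes (-0.57 and 2.50). For Fabp5, the log2 ratio of 72 h over 24 h in monocyte/Mφ-like minus neutrophil-like cells was -3.20 in WT and -4.33 in CCR2 KO, and in CCR2 KO dendritic cell-like minus neutrophil-like cells gave -2.42. The neutrophil-like class here leaves out the Siglecf-led cluster, with 26.2 CPM (WT) and 33.2 CPM (CCR2 KO) of Fabp5 at 72 h.

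The 16 cells set aside for non-leukocyte markers, 10 from CCR2 KO 24 h and 6 from CCR2 KO 72 h, held 34 UMIs of Fabp5, or 215 CPM (149 to 301), and 35 of Plin2, or 222 CPM (155 to 308). Lpl had 2 UMIs there, and Fabp4 and Cd36 had 0.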

How the results depend on the processing

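No paired analysis was possible because each group is 1 library. Counts of the 5 genes past 2-fold stayed within 1.5 times in 46 of 49 alternatives. The exceptions were 0 in place of 3 for CCR2 KO against WT at 24 h with WT sub-cluster levels at the CCR2 KO mix, where fewer cells and a changed mix enter by construction, and 2 in place of 1 at 72 h with at most 5% mitochondrial UMIs (52 CCR2 KO cells) and with the mean over cells. Of 245 alternative log2 ratios, 152 moved by less than the counting interval, 89 by more and 4 turned a ratio whose interval had excluded 0: Plin2 at 24 h to -0.08 with the CCR2 KO mix, Fabp5 at 72 h to 0.68 and Cd36 over time in WT to -0.22 with at most 5% mitochondrial UMIs, and the latter to -0.07 with the mean over cells; the cause was not tested. Ratios near 0 also changed sign, Cd36 over time in CCR2 KO (0.04) to as low as -0.52 and Plin2 at 72 h (0.02) to as low as -0.41, both with the marker gate. Over all genes, 236, 523, 833 and 980 were past 2-fold, against 2421, 2967, 3347 and 2591 with no minimum level and, at 72 h, 926 with the mean over cells. The monocyte/Mφ-like class was highest in 13 (each library clustered on its own) to 19 of 20 pairs of gene and library. In the former setting 239 cells of WT 24 h were named B cell-like in place of 6. Monocyte/Mφ-like cells of that library fell from 1293 to 1024, so the names of that setting are in doubt. The alternatives on doublet scores, the cell with most UMIs and the mix were added after seeing the data. Depth limits Fabp4 at 72 h, with 14 UMIs in CCR2 KO.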
